A study of Mus musculus with 192 samples.

Results

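Metallothioneins Mt1 and Mt2 and the zinc transporters Slc39a14 and Slc30a1 were followed as 4 genes of the 23481 in the table of unique molecular identifier (UMI) counts. They were taken as a list of names, and all 4 passed the filter on low counts that left 4720 genes for testing. The 192 libraries came from bone marrow-derived dendritic cells grown with GM-CSF from female C57BL/6J mice aged 6 to 8 weeks. Cells received for 6 hours 1, 2 or 3 of 7 ligands of pattern recognition receptors, labelled PAM, LPS (lipopolysaccharide), HMW, Zymosan (described as depleted; zymosan is a yeast cell wall preparation), SeV, cGAMP (3',3'-cGAMP, a cyclic dinucleotide) and CpGB. Every single ligand, all 21 pairs and all 35 triplets had 3 libraries each, as did a group labelled Ctrl, whose handling the labels do not describe further, which makes 64 groups. Nothing in the labels says whether the 3 libraries of a group came from separate cultures or animals, so the tests on counts measure the spread between these libraries.

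Library totals ranged from 46564 to 610234 UMIs with a median of 171616, and the 3 Ctrl libraries held 73431 ± 14389 UMIs (SD, n = 3), below the 98306 of the smallest single-ligand library. Summed markers of dendritic cells lay between 2870 and 4315 CPM (UMIs scaled to a common library total) over the groups, those of macrophages between 2844 and 5389 and those of neutrophils between 535 and 967. Within the dendritic cell list, H2-Ab1 (mean of 1804 CPM) and Cd74 (997) were the highest. Its members Flt3 (3.02 CPM) and Zbtb46 (3.03) were near 0, with no UMI in 124 and 121 libraries. Markers of mast cells and basophils (at most 12.1 CPM), B cells (at most 6.58) and T and NK cells (at most 2.17, with Cd3e at 0 in all libraries) were near 0. In bulk libraries, fewer cells of a type and less RNA per cell cannot be told apart. The macrophage sum was highest in Ctrl, and its part in the differences from Ctrl below was not tested. With Zymosan the dendritic cell, macrophage and neutrophil sums had medians of 3541, 3304 and 745 CPM over 22 groups, beside 3714, 3278 and 822 CPM over the 42 groups without it. With PAM they were 3892, 3199 and 829 CPM beside 3538, 3324 and 769 without it, and with LPS 3713, 3054 and 836 CPM beside 3531, 3445 and 754. With cGAMP they were 3665, 3154 and 773 CPM beside 3671, 3310 and 782. The part of these sums in the differences by ligand was not tested.

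Metallothioneins are small, cysteine-rich cytosolic proteins that bind zinc and copper and buffer the free metal. Their genes are transcribed through metal-responsive transcription factor 1, which binds zinc and then metal response elements in their promoters. Slc39a14 (ZIP14) carries zinc, manganese and iron into the cytosol, and Slc30a1 (ZnT1) carries zinc out across the plasma membrane and is itself a metal-responsive gene. In macrophages and dendritic cells, zinc handling is known to shift after microbial stimuli.

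Mt1 (chr8:94179082-94180327, plus strand) and Mt2 (chr8:94172664-94173568, plus strand) are protein-coding neighbours, 5513 bp apart (GRCm38, GENCODE M21). Slc39a14 lies at chr14:70303469-70351425 on the minus strand and Slc30a1 at chr1:191906767-191913247 on the plus strand. Mt2 overlaps the minus-strand gene Gm45774 and Slc30a1 the minus-strand gene 1700034H15Rik, and whether the counting used strand is not given in the sources used here. Transcripts of Mt1 and Mt2 shared no run longer than 20 bases, and no 50-base word of either occurred in a transcript of another gene. RefSeq promoter sequence (250 bases before to 50 after the start, GRCm38.p6) was found for 3 of the 4 genes. The sequences are shown because the metal response element is the element these genes are known for. Capitals mark its core, TGCACNC or TGCGCNC, searched on both strands, all printed 5′ to 3′ on the strand of the gene, which is plus for each.
Mt1, chr8:94178839-94179138: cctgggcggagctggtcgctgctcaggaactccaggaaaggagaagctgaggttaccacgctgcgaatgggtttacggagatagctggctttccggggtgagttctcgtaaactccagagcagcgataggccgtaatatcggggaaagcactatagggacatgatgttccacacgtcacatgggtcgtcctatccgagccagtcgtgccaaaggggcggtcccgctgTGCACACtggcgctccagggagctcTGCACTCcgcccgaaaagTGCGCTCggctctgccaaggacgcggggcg
Mt2, chr8:94172368-94172667: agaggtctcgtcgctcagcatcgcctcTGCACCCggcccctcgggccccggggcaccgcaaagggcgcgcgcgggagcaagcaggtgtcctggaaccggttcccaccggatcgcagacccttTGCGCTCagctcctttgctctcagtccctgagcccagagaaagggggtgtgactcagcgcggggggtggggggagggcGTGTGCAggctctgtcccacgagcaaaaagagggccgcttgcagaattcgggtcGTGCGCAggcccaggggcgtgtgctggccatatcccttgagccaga
Slc30a1, chr1:191906531-191906830: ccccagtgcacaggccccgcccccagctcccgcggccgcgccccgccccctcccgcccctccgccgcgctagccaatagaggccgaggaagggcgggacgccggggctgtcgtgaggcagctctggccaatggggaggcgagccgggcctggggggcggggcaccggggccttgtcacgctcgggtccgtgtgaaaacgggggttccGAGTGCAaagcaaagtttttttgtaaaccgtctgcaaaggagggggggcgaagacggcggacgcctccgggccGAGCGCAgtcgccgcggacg
The core occurred 3 times in the Mt1 window, 4 times in that of Mt2 and 2 times in that of Slc30a1. Of 32851 promoter windows of this length, 25.7% held at least 1 match, 7.11% at least 2, 1.97% at least 3 and 0.518% at least 4. In Mt1 all 3 matches began between 23 bases before and 20 after the start, whereas those of Mt2 began between 223 bases before and 4 after it. TGACNNNGC, the core of the antioxidant response element, matched 1 time each in Mt2 and Slc30a1 and in 12.4% of all windows, and TTCNNNGAA, the interferon-gamma-activated site, matched in none of the 3 and in 8.30% of all windows. No match of one motif overlapped a match of another. A match describes letters in the window and not a site in use.

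Mt1 was higher in most groups with Zymosan than in those without it, and no group with Zymosan was called above Ctrl. Over the 22 groups with Zymosan the group mean ranged from 343 to 708 CPM with a median of 546, and over the 42 groups without it from 120 to 399 CPM with a median of 226. The ranges met only through Ctrl, at 399 CPM, and HMW+SeV+cGAMP, at 345 CPM. The 3 highest groups were PAM+LPS+Zymosan (708 ± 172 CPM, SD, n = 3), PAM+Zymosan (708 ± 79.8) and PAM+Zymosan+CpGB (654 ± 138). The 3 lowest were HMW+SeV+CpGB (120 ± 27.0), HMW+CpGB (128 ± 37.4) and PAM+HMW+CpGB (158 ± 29.4), so that the lowest groups held HMW and CpGB and the highest PAM and Zymosan. Mt2 had the same top condition, with PAM+LPS+Zymosan at 587 ± 202 CPM, PAM+HMW+Zymosan at 565 ± 38.0 and PAM+Zymosan+CpGB at 543 ± 57.7. Its lowest groups were HMW+SeV+CpGB (63.4 ± 15.3), SeV+CpGB (67.5 ± 30.6) and HMW+SeV (68.3 ± 26.6). With Zymosan, Mt2 spanned 166 to 587 CPM (median 404), and without it 63.4 to 246 CPM (median 137). All 63 neighbouring pairs in the ranked group means of each of the 4 genes overlapped in their libraries, so ranks next to each other are not told apart.

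**Figure D1:**
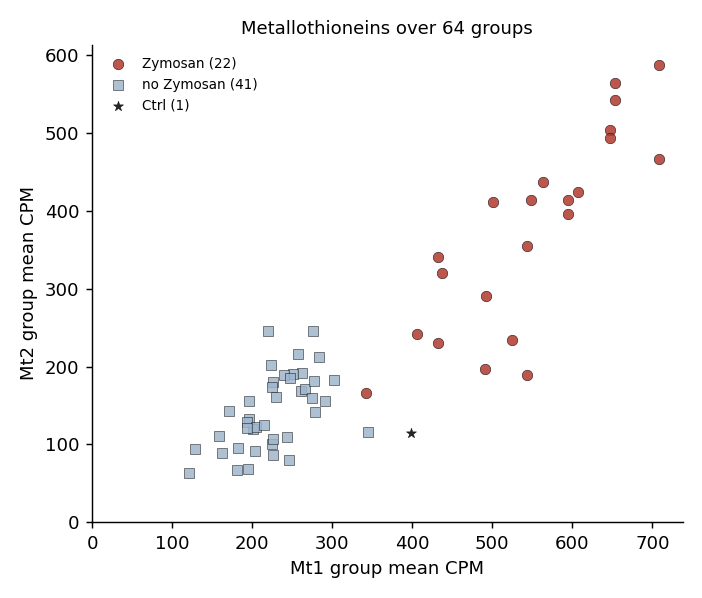
Group mean CPM of Mt1 (x axis) and Mt2 (y axis) in the 64 groups, each point the mean of 3 libraries. Groups with Zymosan (22, circles) lie to the upper right, and Ctrl (star) combines 399 CPM of Mt1 with 115 CPM of Mt2.

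The average effect of a ligand was measured over 22 matched group pairs that differ only by that ligand, on the log2 scale, and called at an adjusted p under 0.05 with a size of at least 0.5 (edgeR's quasi-likelihood test, Benjamini-Hochberg over the 4720 genes). Zymosan raised Mt1 by 1.29 (SE 0.04, 95% interval 1.21 to 1.38, adjusted p = 6.98e-76, edgeR), 2.45-fold, and the step was positive in 22 of 22 pairs. For Mt2 the average was 1.49 (SE 0.06, 95% interval 1.39 to 1.60, adjusted p = 3.90e-69, edgeR), 2.82-fold, again positive in 22 of 22. Zymosan was the only ligand whose average was called for Mt1. PAM (0.23, adjusted p = 8.28e-06) and LPS (0.15, adjusted p = 0.00358) shifted it upwards and CpGB downwards (-0.19, adjusted p = 0.000588) in edgeR's test, all by less than 0.5. Mt2 was also raised by PAM (0.66, SE 0.06, adjusted p = 1.21e-22, edgeR) and LPS (0.68, SE 0.06, adjusted p = 5.41e-23), each positive in 21 of 22 pairs. HMW, SeV, cGAMP and CpGB had Mt2 averages between -0.02 and 0.03, with 95% intervals that lay within -0.14 and 0.16. Of all genes, the average was called in either direction for 12.4% with PAM, 26% with LPS, 0.381% with HMW, 12.4% with Zymosan, 10.5% with SeV, 24.6% with cGAMP and 11.2% with CpGB.

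**Figure D2:**
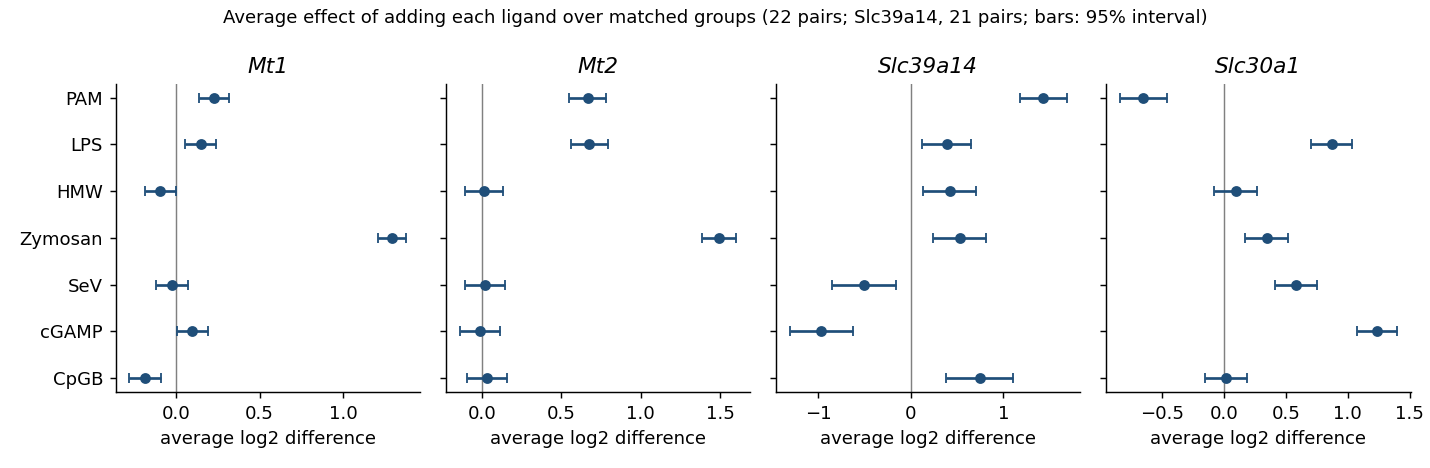
Average log2 difference (x axis) on adding each ligand (y axis) with its 95% interval, over 22 matched group pairs, or for Slc39a14 over 21, without the pair that holds cGAMP alone. Zymosan stands at 1.29 for Mt1 and 1.49 for Mt2, and cGAMP at 1.24 for Slc30a1 and -0.97 for Slc39a14.

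Taken pair by pair, with steps of 1 or more on the log2 scale, adding Zymosan raised Mt1 in 19 of 22 backgrounds and Mt2 in 18, beside 2.51% of all gene and background combinations called higher. The Mt1 steps ranged from 0.47 on Ctrl to 2.18 on HMW+CpGB, and the Mt2 steps from 0.66 on SeV+cGAMP to 2.61 on SeV+CpGB. The 3 Mt1 backgrounds that missed the threshold were Ctrl, LPS+cGAMP and SeV+cGAMP. For Mt2, adding PAM was called in 3 backgrounds (2.68% of all combinations called higher) and adding LPS in 6 (6.09%). Adding CpGB was called higher in 2 (2.65%), Zymosan and HMW+Zymosan, and its Mt2 steps ran from -0.63 to 1.10, 10 positive and 12 negative.

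Ctrl had the highest Mt1 mean of the 42 groups without Zymosan, and 6 of the 7 single ligands had a lower mean than Ctrl. The 3 Ctrl libraries read 429, 412 and 355 CPM of Mt1, on 101 UMIs in all. With CpGB, Mt1 was at 146, 179 and 161 CPM. These libraries lie below every Ctrl library, and the difference was called (log2 fold change -1.26, SE 0.25, adjusted p = 1.06e-05, edgeR). LPS gave 112, 244 and 233 CPM (-0.95, adjusted p = 0.000533, edgeR) and SeV 248, 169 and 192 CPM (-0.98, adjusted p = 0.00101). cGAMP gave 138, 210 and 331 CPM (-0.75, adjusted p = 0.0116, edgeR). These 3 passed the adjusted p and missed the fold threshold of 1 on the log2 scale, although no library of LPS, SeV or cGAMP reached the lowest Ctrl library. LPS and SeV passed that threshold with RLE factors (-1.10 each), with library size alone (-1.25 and -1.17) and with DESeq2 (-1.11 and -1.10). These settings moved the median over all genes by -0.14, -0.30 and -0.15 for LPS and by -0.12, -0.19 and -0.12 for SeV, and relative to it Mt1 stood at -0.96 with LPS and -0.99 with SeV in each.

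Zymosan alone gave 561, 467 and 602 CPM of Mt1, every library above Ctrl, with a log2 fold change of 0.47 that was not called (SE 0.21, adjusted p = 0.162, edgeR). PAM (308, 246 and 233 CPM) and HMW (249, 238 and 242 CPM) were below every Ctrl library, with adjusted p of 0.0508 and 0.119 in edgeR's test. The order of the Mt1 means was Zymosan (543 ± 69.1), Ctrl (399 ± 38.7), PAM (263 ± 40.1), HMW (243 ± 6.00), cGAMP (226 ± 97.9), SeV (203 ± 41.0), LPS (196 ± 73.3) and CpGB (162 ± 16.6). Among these, Zymosan and Ctrl did not overlap with each other or with any other group, and the 6 others overlapped with their neighbours.

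Mt2 stood at 139, 99.8 and 106 CPM in Ctrl. PAM gave 197, 196 and 183 CPM (log2 fold change 0.76, SE 0.33, adjusted p = 0.107, edgeR) and Zymosan 166, 179 and 224 CPM (0.78, SE 0.33, adjusted p = 0.144). Every library of PAM and of Zymosan was above every Ctrl library. The other 5 ligands overlapped with Ctrl, from LPS at 132 ± 11.3 CPM down to cGAMP at 86.6 ± 38.1. No single ligand was called for Mt2 by edgeR or DESeq2, and PAM and Zymosan had an unadjusted p under 0.05 below the fold threshold. For reference, the share of all genes called in either direction was 13.9% with PAM, 24.2% with LPS, 0.975% with HMW, 6.25% with Zymosan, 15.6% with SeV, 17.6% with cGAMP and 17% with CpGB.

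**Figure D3:**
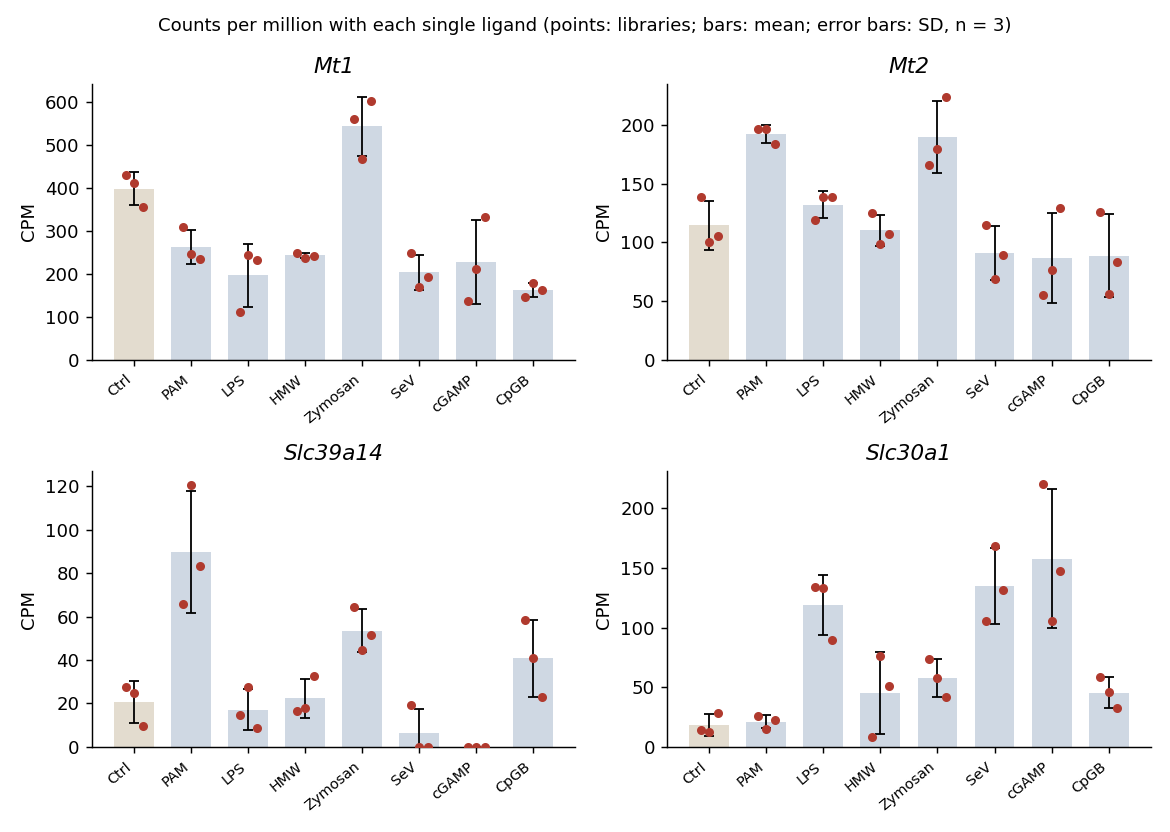
CPM (y axis) of each gene in Ctrl and with each single ligand (x axis), with points for libraries, bars for means and error bars for SD (n = 3). Mt1 is above Ctrl only with Zymosan, Slc39a14 is highest with PAM and at 0 in all 3 cGAMP libraries, and Slc30a1 is highest with cGAMP, SeV and LPS.

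Of the 63 conditions, Mt1 was called lower than Ctrl in 11 and higher in 0, and Mt2 was called higher in 22 and lower in 0. These comparisons share the Ctrl libraries. Over all genes 14.3% of such comparisons were called higher and 9.03% lower. CpGB was in 9 of the 11 conditions with lower Mt1, and none of them held Zymosan. Zymosan was in 19 of the 22 conditions with higher Mt2, and the others were PAM+LPS, PAM+LPS+HMW and PAM+LPS+SeV. The Mt1 count of 11 became 17 with RLE factors or DESeq2 and 31 with library size alone, settings that shifted the median of all genes against Ctrl by -0.16, -0.16 and -0.36 in the median condition. Relative to that shift, 11 conditions were called lower for Mt1 under each of the 3. The relative counts of higher conditions with RLE factors, library size alone and DESeq2 were 22, 17 and 22 for Mt2, 9, 8 and 7 for Slc39a14 and 47, 46 and 46 for Slc30a1. The count was 24 after thinning all libraries to the smallest total (shift -0.11), 4 without the filter on low counts (shift 0.24) and 7 without replicate 1 or 2. At an unadjusted p under 0.05 with the same fold threshold, Mt1 was higher in 0 and Mt2 lower in 0 conditions, and DESeq2 called 0 in each.

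Mt2 was above both single ligands by at least 1 on the log2 scale in 3 pairs. PAM+Zymosan read 632, 376 and 395 CPM, each library above all PAM and all Zymosan libraries, with a smaller difference of 1.21 (adjusted p = 0.000217, edgeR). LPS+Zymosan read 356, 393 and 486 CPM (1.08, adjusted p = 0.000706) and Zymosan+CpGB 353, 369 and 519 CPM (1.10, adjusted p = 0.000308, edgeR). The libraries of these pairs did not overlap with those of either ligand alone. Over all genes, 0.353% of gene and pair combinations were called above both single ligands and 0.0504% below. No pair was called in this way for Mt1, Slc39a14 or Slc30a1, nor below both for any of the 4 genes, also at an unadjusted p. For the 35 triplets, edgeR called 0 of the 4 genes above or below all 3 pairs, also at an unadjusted p, beside 0.0115% and 0% of all gene and triplet combinations. DESeq2 was not run on pairs and triplets against their parts. The Mt2 count of 3 became 1 with library size alone and 0 with thinned counts.

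Interactions of 2 ligands compare a pair with the sum of both single effects on the log2 scale. Mt1 had 8 positive interactions called of 21 and no negative one, of which the largest were LPS+CpGB (1.40, SE 0.34, adjusted p = 0.000700, edgeR) and Zymosan+CpGB (1.27, SE 0.30, adjusted p = 0.00268). LPS+CpGB read 217, 204 and 249 CPM, while LPS and CpGB alone were each below Ctrl, so that the pair did not fall as far as the sum of both falls. All 21 Mt1 interaction estimates were positive, between 0.33 and 1.40, and each uses the same Ctrl libraries. Mt2 had 1 called interaction, Zymosan+CpGB (1.56, SE 0.46, adjusted p = 0.0283, edgeR), with 353, 369 and 519 CPM against 88.4 ± 35.3 with CpGB and 190 ± 30.5 with Zymosan. No negative interaction was found for Mt1, Mt2 or Slc39a14 and no positive one for Slc30a1, by edgeR, by DESeq2 or at an unadjusted p under 0.05 in edgeR. The share of all gene and pair combinations called was 1.08% for positive and 3.5% for negative interactions. Without replicate 1, 2 or 3 the Mt1 count fell to 2, 1 and 2 and the Mt2 count to 0 each.

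The Mt1:Mt2 ratio was taken from group mean CPM, so that scaling enters only through the weights of the 3 libraries. It fell by 0.54 on the log2 scale with LPS (SD 0.46 over 22 pairs, 20 of 22 lower, adjusted p = 0.000420) and by 0.44 with PAM (SD 0.46, 18 of 22 lower, adjusted p = 0.000630). These are two-sided paired permutation tests with 100000 resamples, adjusted over 7 ligands. They take the 22 matched pairs of group means as units, so they measure the spread over backgrounds and not that between libraries. The backgrounds share ligands, which these p-values do not take into account. Mean ratios went from 1.97 to 1.36 with LPS and from 1.86 to 1.37 with PAM, so that Mt2 gained relative to Mt1. Zymosan shifted the ratio by -0.20 (13 of 22 lower, adjusted p = 0.0378, permutation test), a call lost without replicate 1 (-0.20, adjusted p = 0.0657) and without replicate 3 (-0.17, adjusted p = 0.144). CpGB had -0.22 (adjusted p = 0.0536, permutation test), which passed with the median of library ratios (-0.27, adjusted p = 0.0252). HMW had -0.10, cGAMP 0.11 and SeV -0.03, none of which passed in either way. Ctrl had the highest ratio, 3.48, and PAM+LPS+SeV the lowest, 0.893. The log2 levels of both genes had a Pearson r of 0.87 (Spearman rho 0.84) over the 64 groups, a description over groups that share ligands, and the deviations of libraries from their group means had r = 0.43 over 192 libraries.

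PAM, SeV and cGAMP each had average effects of opposite sign on the zinc importer and the zinc exporter, while the LPS and Zymosan averages were positive for both. With SeV the averages were -0.50 for Slc39a14, called over 21 pairs only, and 0.58 for Slc30a1. Slc39a14 was highest with PAM and low with cGAMP, and Slc30a1 was highest with cGAMP and low with PAM. Both were sparse: Slc39a14 had a median of 6 UMIs per library and 0 in 15 libraries, and Slc30a1 had a median of 17 UMIs. In Ctrl, 5 UMIs were counted for each. Over the 64 groups the log2 levels had a Pearson r of -0.57 (rho -0.60), while the deviations of libraries from their group means had r = -0.07 over 192 libraries.

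**Figure D4:**
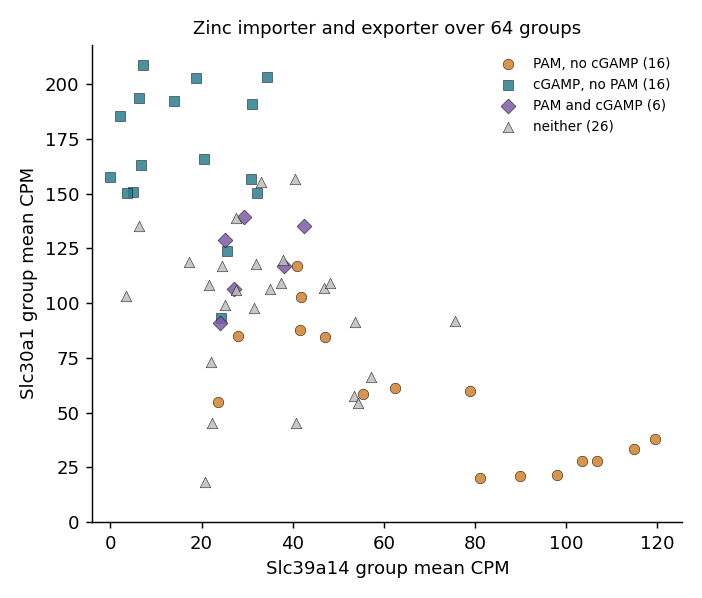
Group mean CPM of Slc39a14 (x axis) and Slc30a1 (y axis) in the 64 groups, marked by the presence of PAM and cGAMP. Groups with PAM and without cGAMP (16) reach 120 CPM of Slc39a14, and groups with cGAMP and without PAM (16) reach 209 CPM of Slc30a1.

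Slc39a14, the importer, read 27.7, 24.9 and 9.60 CPM in Ctrl. PAM gave 65.6, 121 and 83.3 CPM, on 49 UMIs, all above Ctrl (log2 fold change 2.19, SE 0.57, adjusted p = 0.00199, edgeR). By counts alone the ratio was 4.73 (95% interval 1.90 to 15.2, counting error only). The call was lost without Ctrl replicate 3 (1.77, adjusted p = 0.0523), without replicate 3 of all groups (1.86, adjusted p = 0.0690) and after thinning (1.95, adjusted p = 0.0940). With cGAMP no UMI of Slc39a14 was counted in 3 libraries, at least 2.88-fold lower than Ctrl by a floor of 3 counts over the group. With the counting error of the 5 Ctrl UMIs included, the 95% interval of the ratio of Ctrl to cGAMP starts at 1.58. edgeR called this difference (adjusted p = 0.0114), with a fitted fold change that depends on the prior count and is not given. The call was lost without the filter on low counts (adjusted p = 0.0618), without replicate 1 (0.0766) or 2 (0.115) and after thinning (0.172). SeV had 2 UMIs in all (ratio of Ctrl to SeV 4.37, 95% interval 0.715 to 45.9). Zymosan read 64.4, 44.8 and 51.3 CPM, above every Ctrl library but not called (1.39, adjusted p = 0.195, edgeR). CpGB read 58.2, 40.8 and 23.1 CPM and overlapped with Ctrl, as did LPS (17.2 ± 9.59) and HMW (22.4 ± 8.83).

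The highest Slc39a14 groups were PAM+Zymosan+CpGB (120 ± 14.3 CPM), PAM+HMW+Zymosan (115 ± 49.8) and PAM+HMW (107 ± 14.4). The lowest were cGAMP (0 in each library), Zymosan+cGAMP (2.13 ± 3.70, on 1 UMI) and HMW+SeV (3.47 ± 3.00, on 2 UMIs). Of the 63 conditions 11 were called higher than Ctrl and 2 lower, the 2 being cGAMP and Zymosan+cGAMP. Beside the 14.3% and 9.03% of all such comparisons, the higher count was near the background and the lower count below it. PAM was in 10 of the 11, none of which held LPS or cGAMP, and the 11th was Zymosan+SeV+CpGB. DESeq2 called 7 higher and 1 lower, and without replicate 3 edgeR called 4 higher and 1 lower.

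Averages for Slc39a14 are given over the 21 matched pairs that do not hold the cGAMP group alone, where its count was 0. This choice was made after seeing the data. PAM raised it by 1.43 (SE 0.13, 95% interval 1.18 to 1.68, adjusted p = 7.34e-22, edgeR), 2.70-fold, positive in 20 of 21 pairs. With cGAMP it fell by 0.97 (SE 0.17, 95% interval -1.31 to -0.63, adjusted p = 2.38e-07), 1.96-fold lower, negative in 15 of 21. CpGB (0.75, SE 0.18, adjusted p = 0.000406, edgeR) and Zymosan (0.53, SE 0.14, adjusted p = 0.00133) also raised it. SeV was called lower over these 21 pairs only (-0.50, SE 0.17, adjusted p = 0.0144, edgeR). LPS (0.39, adjusted p = 0.00840) and HMW (0.42, adjusted p = 0.0446) passed the adjusted p in edgeR's test and were below the size of 0.5. The share of all genes called over these 21 pairs was 12.1% with PAM, 25.8% with LPS, 0.424% with HMW, 12.5% with Zymosan, 11% with SeV, 23.7% with cGAMP and 10.6% with CpGB. In the averages over 22 pairs, the calls with cGAMP and CpGB were lost without replicate 1, that with Zymosan without replicate 2, and those with cGAMP and Zymosan with thinned counts. These alternatives were not run over the 21 pairs. Leaving out that pair changed 3 calls. Over all 22 pairs, which include the count of 0, LPS (0.62, adjusted p = 7.66e-05) and HMW (0.54, adjusted p = 0.0102) were called higher in edgeR's test. SeV was not called over the 22 pairs (-0.33, adjusted p = 0.984, edgeR). Its SE there, worked back from the test, was 6.15 beside 0.17 over 21 pairs, and is not usable as a spread. The other 22-pair averages were called as above, with 1.60 for PAM, -1.14 for cGAMP, 0.95 for CpGB and 0.59 for Zymosan.

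Groups with LPS held Slc39a14 within a narrower range than groups without it. The 22 groups with LPS lay between 17.2 and 48.2 CPM and the 42 without it between 0 and 120 CPM. A narrower range was also seen with cGAMP, 0 to 42.4 CPM in 22 groups beside 3.47 to 120 CPM in the 42 without it. The 26 groups without PAM or LPS lay between 0 and 75.6 CPM. The widths of these ranges were not tested. Adding LPS was called lower in 4 backgrounds (3.78% of all combinations called lower), PAM, PAM+HMW, PAM+Zymosan and PAM+CpGB, with steps from -1.67 to -1.13. It was called higher in 4 others, cGAMP, HMW+SeV, HMW+cGAMP and SeV+cGAMP, in which the gene was at 6.61 CPM or less, beside 6.09% of all combinations called higher. Whether the effect of LPS differs between these backgrounds was tested only for pairs: the LPS+cGAMP interaction was called (adjusted p = 0.00805, edgeR), and its size rests on the group with a count of 0. That call was lost with thinned counts and without replicate 1 or 2, and the PAM+LPS interaction was not called (-0.92, SE 0.89, adjusted p = 0.651, edgeR). PAM+LPS read 45.6, 37.4 and 42.5 CPM, below each PAM library, and LPS+cGAMP read 43.8, 41.5 and 18.1 CPM, above each cGAMP library. Adding cGAMP was called lower in 8 backgrounds (2.78% of all combinations), none of which held LPS or SeV, and adding PAM was called higher in 9 (2.68% of all combinations). Groups with PAM and cGAMP together (6) lay between 24.1 and 42.4 CPM, beside 23.6 to 120 CPM in the 16 groups with PAM and without cGAMP.

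Slc30a1, the exporter, read 13.9, 12.5 and 28.8 CPM in Ctrl. With cGAMP it was at 220, 105 and 147 CPM (log2 fold change 2.91, SE 0.57, adjusted p = 1.20e-05, edgeR), with SeV at 105, 169 and 131 CPM (2.76, SE 0.58, adjusted p = 6.41e-05) and with LPS at 134, 133 and 89.5 CPM (2.53, SE 0.59, adjusted p = 0.000200). All libraries of these 3 ligands were above every Ctrl library. By counts alone the ratios to Ctrl were 7.64 (95% interval 3.11 to 24.3) with cGAMP, 6.98 (2.83 to 22.3) with SeV and 5.91 (2.40 to 18.8) with LPS, wide because Ctrl held 5 UMIs. Without replicate 3 of all groups the log2 fold changes were 3.54, 3.41 and 3.35, over 1.5 times higher as folds, and no call was lost on leaving out any replicate. Zymosan (73.6, 57.6 and 42.0 CPM) and CpGB (58.2, 46.0 and 32.3 CPM) were above every Ctrl library and not called, HMW (45.2 ± 34.3) overlapped with Ctrl, and so did PAM, at 26.2, 15.1 and 22.2 CPM (0.09, adjusted p = 0.971, edgeR). The order was cGAMP, SeV, LPS, Zymosan, CpGB, HMW, PAM and Ctrl, and cGAMP, SeV and LPS overlapped in their libraries.

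Slc30a1 was called higher than Ctrl in 48 of the 63 conditions and lower in 0, beside 14.3% and 9.03% of all such comparisons. All 63 estimates were positive, and they are not independent, since all use the same Ctrl libraries with 5 UMIs of this gene. DESeq2 called 46 higher and 0 lower, and at an unadjusted p under 0.05 edgeR gave 0 lower. The 3 highest groups were HMW+Zymosan+cGAMP (209 ± 25.2 CPM), LPS+cGAMP (203 ± 21.1) and Zymosan+cGAMP+CpGB (203 ± 52.9), and the 3 lowest were Ctrl (18.4 ± 9.06), PAM+HMW+CpGB (20.1 ± 4.68) and PAM (21.2 ± 5.65). Every group with cGAMP was at 90.8 CPM or more, and the 42 groups without it spanned 18.4 to 157 CPM.

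On average cGAMP raised Slc30a1 by 1.24 (SE 0.08, 95% interval 1.08 to 1.40, adjusted p = 3.06e-35, edgeR), 2.36-fold, positive in 22 of 22 pairs and called in 10 (5.65% of all combinations called higher). LPS raised it by 0.87 (SE 0.08, adjusted p = 5.89e-20), 1.83-fold, with 9 called steps, and SeV by 0.58 (SE 0.09, adjusted p = 1.24e-09, edgeR), with 2 called steps (2.93% of all combinations). With PAM it fell by 0.65 (SE 0.10, 95% interval -0.84 to -0.46, adjusted p = 1.21e-09, edgeR), 1.57-fold lower, negative in 20 of 22 pairs and called in 3 (1.67% of all combinations called lower). The 3 were PAM added to SeV, Zymosan+cGAMP and Zymosan+CpGB. On Ctrl, where the gene had 5 UMIs in all, the PAM step was 0.09. Zymosan (0.35, adjusted p = 0.000557) stayed under the size of 0.5, and HMW (0.10) and CpGB (0.02) had 95% intervals of -0.08 to 0.27 and -0.15 to 0.19.

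Pairs of LPS, SeV and cGAMP, which each raised Slc30a1, stayed below the sum of both single effects on the log2 scale. LPS+SeV (83.8, 126 and 141 CPM), LPS+cGAMP (184, 201 and 226 CPM) and SeV+cGAMP (152, 162 and 175 CPM) had negative interactions of -2.70 (SE 0.69, adjusted p = 0.00246), -2.08 (SE 0.69, adjusted p = 0.0296) and -2.63 (SE 0.68, adjusted p = 0.00278, edgeR). No other pair was called for this gene, in either direction, and 3.5% of all gene and pair combinations were called negative. All 21 interaction estimates of Slc30a1 were negative, between -2.70 and -0.16, so the sign is not particular to these 3 pairs. Each estimate uses the same Ctrl libraries, which held 5 UMIs of this gene. LPS+SeV and SeV+cGAMP overlapped with the libraries of both ligands alone. In the 6 backgrounds that held LPS, adding cGAMP gave steps from 0.19 to 0.83, none of them called.

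Among 25 further genes of zinc handling (metallothioneins Mt3 and Mt4, Mtf1 and the other Slc30 and Slc39 family members), 8 had enough counts to be tested. PAM called 1 of the 8, Slc39a1 (ZIP1, a plasma membrane zinc importer), which rose from 361 ± 27.3 CPM in Ctrl to 794 ± 120 (log2 fold change 1.13, SE 0.23, adjusted p = 2.44e-05, edgeR). That is 1 of 8 beside 13.9% of all genes called with PAM, a share near the background, and the average effect of PAM on Slc39a1 over 22 backgrounds was 0.09 and not called. With DESeq2, 0 of the 8 passed with PAM. LPS, HMW, Zymosan, SeV, cGAMP and CpGB called 0 of the 8 by edgeR and by DESeq2, and at an unadjusted p under 0.05 in edgeR Slc39a7 passed the fold threshold upwards with LPS, Zymosan, SeV and CpGB, and Slc39a2 downwards with CpGB. At that p Slc39a2 also passed downwards with PAM. Averaged over 22 backgrounds, Slc39a2 was called higher with cGAMP, Zymosan and SeV, and the sizes are not given because 4 groups, PAM and CpGB alone among them, had no UMI of it. Slc39a13 averages were called lower with PAM (-0.89, adjusted p = 8.50e-06), cGAMP (-0.75, adjusted p = 0.000276) and Zymosan (-0.63, adjusted p = 0.00367, edgeR), at a median of 2.5 UMIs per library. Slc39a7, Slc39a2 and Slc39a13 are named here after their values were seen. Slc39a1 passed the adjusted p with LPS (0.83, adjusted p = 0.00247), Zymosan (0.89, adjusted p = 0.00435) and CpGB (0.69, adjusted p = 0.0234, edgeR), each under a log2 fold change of 1. The median log2 fold change of the 8 was 0.21 with PAM, 0.04 with LPS, 0.16 with HMW, 0.17 with Zymosan, 0.35 with SeV, 0.30 with cGAMP and -0.05 with CpGB. Over all genes tested the medians were 0.03, -0.06, 0.03, 0.02, -0.08, -0.09 and -0.03 in the same order.

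Likeness to each gene was measured by Pearson's r of group mean log2 CPM over the 64 groups, among the 4501 tested genes whose mean reached 20 CPM. For Mt1 the most alike were Gde1 (0.91), Spp1, which encodes osteopontin (0.89), the glucose transporter Slc2a1 (0.89), Mif (0.87) and Mt2 (0.87). For Mt2 they were Mt1 (0.87), Anxa5 (0.86), Fam129b (0.82), the carbonic anhydrase Car2 (0.79) and the transglutaminase Tgm2 (0.78). Slc39a14 was nearest to the cystine transporter Slc7a11 (0.86), the chemokine Cxcl3 (0.83), Lcp1 (0.82), Tnip1 (0.82) and the ferritin heavy chain Fth1 (0.81). Slc30a1 was nearest to the hexokinase Hk3 (0.91), the transcription factor Irf1 (0.88), Il15ra (0.88), Pi4k2a (0.86) and the interferon-induced Oasl1 (0.86). These values describe groups that share ligands and carry no test.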

How the data were processed

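The values were whole UMI counts per gene and library, as deposited by the authors in 1 table of 192 libraries with no other normalization. The submitters' processing notes list BWA 0.7.15 and the mm10 build. Counting, strand use and UMI collapsing are not given in the sources used here. Groups came from the labels, and no file column lacked a sample.

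Counts were tested with edgeR 4.0.16 (R 4.3.3): filtering by expression per group (4720 of 23481 genes, holding 95.7% of UMIs), TMM factors, 1 coefficient per group (128 residual degrees of freedom) and quasi-likelihood tests. Adjusted p-values are Benjamini-Hochberg over all tested genes. Each SE was worked back from the fitted log2 change and the statistic of its quasi-likelihood test. The intervals on averages were built on these SE values, so both restate the test and are not separate estimates of spread. They can be unusable where the change is very small or a group has no count of the gene. Single ligands, the 63 conditions and added ligands were called where the adjusted p was below 0.05 and the log2 change reached 1 in size, averages where it reached 0.5, and interactions on the adjusted p alone. A pair or triplet was compared with each of its parts by the largest p. CPM use effective library sizes. Library totals had a median of 171616 UMIs, so levels near 20 CPM rest on few molecules, and intervals on counts cover counting error only. Tests were checked on simulated counts.

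The 4 genes were named with all single ligands and with their 3 highest and 3 lowest groups. Genes of the zinc list and of an iron and copper list were named where called with a single ligand, and the 5 most alike genes were named for each member. The members and lists were chosen with earlier results of these data known. Alternatives were RLE factors, library size alone, no filter, a replicate block, thinned counts, DESeq2 1.42.0, leaving out each replicate, fits of a ligand and Ctrl alone, the median of library ratios for Mt1:Mt2 and, added after seeing the data, averages without the matched pair that holds cGAMP alone. Same-numbered libraries did not deviate together (median correlation 0.01, 0 of 63 conditions with every pair over 0.1), so numbers were not used as pairs.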

Additional observations from a re-analysis of the deposited data

Results flagged for a closer look

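Pair effects on the log2 scale that differed from the sum of both single effects, by edgeR's interaction test with Benjamini-Hochberg adjustment, were found 13 times among the 4 genes and 21 pairs, and all use the same 3 Ctrl libraries. Over all genes, 1.08% of gene and pair combinations were called positive and 3.5% negative. On leaving out a replicate of all groups, the Mt1 calls fell to between 1 and 2 and the Mt2 call to 0. For Mt1 the interaction was 1.00 with PAM and LPS (adjusted p = 0.0216), 0.96 with PAM and Zymosan (adjusted p = 0.0283), 1.16 with LPS and SeV (adjusted p = 0.0101) and 1.15 with LPS and cGAMP (adjusted p = 0.00730). It was 1.40 with LPS and CpGB (adjusted p = 0.000700), 1.27 with Zymosan and CpGB (adjusted p = 0.00268), 0.96 with SeV and cGAMP (adjusted p = 0.0479) and 1.10 with SeV and CpGB (adjusted p = 0.0409). Mt2 had 1.56 with Zymosan and CpGB (adjusted p = 0.0283). Slc39a14 had 5.66 with LPS and cGAMP (adjusted p = 0.00805), a fitted size that depends on the prior count, as cGAMP alone had 0 UMIs of this gene. Slc30a1 had -2.70 with LPS and SeV (adjusted p = 0.00246), -2.08 with LPS and cGAMP (adjusted p = 0.0296) and -2.63 with SeV and cGAMP (adjusted p = 0.00278).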

How the results depend on the processing

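No called result changed direction under any alternative run. Mt1 with LPS and SeV passed the fold threshold with RLE factors (-1.10 and -1.10), library size alone (-1.25 and -1.17), DESeq2 (-1.11 and -1.10) and thinned counts (-1.19 and -1.55), and cGAMP with thinned counts (-1.07). The Mt1 conditions called lower became 17 with RLE factors, 31 with library size alone, 17 with DESeq2, 24 with thinned counts and 4 with no filter, where 2 were higher. Thinned counts moved the median of all genes against Ctrl by -0.11 and no filter by 0.24. Mt1 interactions became 2 with no filter and 3 with thinned counts, and those of Mt2 became 0 with each. Mt2 conditions became 14 higher with thinned counts and 2 lower with library size alone, and pairs above both ligands 1 with library size alone and 0 with thinned counts. For Slc39a14, DESeq2 called 7 conditions higher and 1 lower, thinned counts 1 and 0, and no filter left 0 lower. With thinned counts it had 0 interactions, 1.95 with PAM (adjusted p = 0.0940, edgeR) and averages over 22 pairs without a call of 0.60 (LPS), 0.0446 (HMW), 0.56 (Zymosan) and -1.01 (cGAMP). Library size alone gave a 22-pair LPS average of 0.495, below 0.5. The fitted value with cGAMP, which rests on a count of 0 and depends on the prior count, lost its call at -4.55 with no filter and -3.41 with thinned counts. Without the matched pair that holds cGAMP alone, a choice added after seeing the data, the averages were 0.39 (LPS), 0.42 (HMW) and -0.50 (SeV). The median of library ratios gave -0.27 for the Mt1:Mt2 ratio with CpGB (adjusted p = 0.0252, permutation test).

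Leaving out 1 replicate at a time gave Mt1 ranges of -1.10 to -0.61 (LPS), -1.07 to -0.78 (SeV) and -1.14 to -0.43 (cGAMP). It gave 7 to 14 Mt1 conditions lower and 0 to 1 higher, 1 to 2 Mt1 interactions and 0 to 0 Mt2 interactions. Slc39a14 ranged from 1.77 to 2.63 with PAM, from -4.75 to -1.13 with SeV and from -5.19 to -4.49 with cGAMP. The values with cGAMP, and -4.75 with SeV, rest on a count of 0, depend on the prior count and say nothing of size. It had 4 to 9 conditions higher, 0 to 1 lower and 0 to 1 interactions. Its averages over all 22 pairs, not the 21 of the results, ranged from 0.40 to 0.69 (HMW), 0.55 to 0.69 (Zymosan), -1.23 to -1.12 (cGAMP) and 0.89 to 1.06 (CpGB), with calls lost for cGAMP and CpGB without replicate 1, Zymosan without replicate 2 and HMW without replicate 3. Without replicate 1 or 2 they include 3 and 2 groups at a count of 0. Slc30a1 ranged from 2.30 to 3.35 with LPS, 2.47 to 3.41 with SeV and 2.57 to 3.54 with cGAMP and kept its calls. The Mt1:Mt2 ratio ranged from -0.23 to -0.17 with Zymosan and from -0.25 to -0.17 with CpGB. The replicate block changed no call in 88 results, and with the block 48 conditions were called higher for Slc30a1 and Slc39a14 with PAM was at 2.18. Depth limits both transporters, with 5 UMIs each in Ctrl.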

Other observations

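In a list of 12 genes of iron and copper handling, chosen with earlier results of these data known, 11 were tested against Ctrl. By edgeR's quasi-likelihood test PAM called 3 of the 11 higher and 1 lower, LPS 4 and 3, Zymosan 1 and 0, SeV and cGAMP 1 and 1 each and CpGB 3 and 0, and HMW called 0 in either direction, also by DESeq2 and at an unadjusted p under 0.05. Of all genes, 13.9% were called with PAM, 24.2% with LPS, 0.975% with HMW, 6.25% with Zymosan, 15.6% with SeV, 17.6% with cGAMP and 17% with CpGB. The counts with Zymosan, SeV and cGAMP were thus near the background, and that with CpGB was not far above it. The median log2 fold change of the 11 was 0.60 with PAM, 0.27 with LPS, 0.02 with HMW, 0.45 with Zymosan, -0.32 with SeV, -0.23 with cGAMP and 0.54 with CpGB, beside medians over all genes between -0.09 and 0.03.

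Lcn2, which encodes the siderophore-binding lipocalin 2, was at 52.5 ± 15.6 CPM in Ctrl and at 898 ± 132 with PAM (log2 fold change 4.12, adjusted p = 3.43e-29, edgeR), 400 ± 34.9 with LPS and 315 ± 83.2 with CpGB. The Zymosan call was Hmox1, the haem oxygenase, which rose from 258 ± 68.3 to 1657 ± 140 CPM (2.66, adjusted p = 1.32e-20, edgeR). Slc31a2, a copper transporter, rose with PAM, LPS, SeV, cGAMP and CpGB, from 132 ± 6.58 CPM in Ctrl to between 336 ± 38.7 (cGAMP) and 611 ± 84.8 (LPS). Its relative Slc31a1, the main copper importer, was called with PAM (1.87), LPS (1.43) and CpGB (1.76). Averaged over 22 backgrounds, these ligands gave 0.48, 0.09 and 0.24 for Slc31a1, none called, and 0.58 for Slc31a2 with LPS, called, beside 0.20 to 0.38 with PAM, SeV, cGAMP and CpGB, not called. Slc11a1 (NRAMP1), a metal transporter of phagosomes, fell with LPS (-1.37), SeV (-1.18) and cGAMP (-1.25), from 211 ± 23.0 CPM to 77.9 ± 23.6, 98.8 ± 35.1 and 88.3 ± 7.45. Its averages were called with LPS (-1.18) and cGAMP (-0.83) and not with SeV (-0.37). The averages of Lcn2 with PAM (1.76), LPS (1.07) and CpGB (0.71) and of Hmox1 with Zymosan (1.84) were called higher, and those of Hmox1 with LPS (-0.79) and cGAMP (-0.97) lower. Slc40a1, the iron exporter ferroportin, had 12 UMIs in Ctrl, 0 with PAM and 4 with LPS (-2.54 with LPS, adjusted p = 0.0127, edgeR). By a floor of 3 counts over the group, it was at least 8.28-fold lower with PAM, a value that leaves out the counting error of the 12 Ctrl UMIs. Its average with Zymosan was called higher (0.62, adjusted p = 0.0182, edgeR), a size that depends on the prior count, as the PAM background had 0 UMIs. Zymosan alone went the other way, from 45.5 ± 10.7 CPM in Ctrl to 18.2 ± 12.6, and was not called (-1.15, adjusted p = 0.379, edgeR). The averages with the other 6 ligands were not called and had an SE of 183 or more, so no size is given. With LPS, Slc11a2 was called higher (1.21) and the copper pump Atp7a lower (-1.61).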
